A study of Mus musculus with 24 samples.

Results

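The respiratory complex I genes were chosen by symbol, as all Nduf genes that name a subunit or an assembly factor, and 49 of the 55254 genes in the count tables met this rule. They fell into 7 core subunits, 4 accessory subunits of the V and S series, 13 of the A series (with Ndufab1), 12 of the B and C series, 8 assembly factors and 5 others. The others were Ndufa4, Ndufa4l2 and the pseudogenes Ndufa11b, Ndufb4c and Ndufs6b. RNA was sequenced from hippocampal nuclei of male C57BL/6N mice of 6 months that were WT, deficient for Mutyh (Mutyh-/-), deficient for Ogg1 (Ogg1-/-) or deficient for both (DKO, labelled Mutyh-/-xOgg1-/-). Nuclei were sorted on NeuN, a protein of neuronal nuclei, into a neuronal NeuN+ and a non-neuronal NeuN- fraction, with 3 libraries for each of the 8 groups. The study's methods name no deletion limited to a cell type, and describe nuclei pooled from 3 animals per genotype. The study's statistics section describes its data in general as from 3 or more independent biological replicates. For these libraries the sources do not say whether the 3 of a group came from separate pools. P-values therefore measure the spread between these libraries, which may be technical.

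Complex I is the largest enzyme of the mitochondrial respiratory chain. It takes electrons from NADH in its matrix arm, passes them over a chain of iron-sulphur clusters to ubiquinone and pumps protons through its membrane arm. Core subunits carry out this chemistry, accessory subunits surround and stabilise them, and assembly factors help to build the enzyme without staying in it. Neurons depend strongly on it for ATP. OGG1 and MUTYH are DNA glycosylases that act on 8-oxoguanine and on adenine paired with it. The subunits encoded in mitochondrial DNA were not analysed here, and nuclear RNA was measured, not cytoplasmic mRNA or protein.

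Total counts per library ran from 56563586 to 96192142. All 8 neuronal markers were higher in WT NeuN+ nuclei, and all 5 oligodendrocyte, 6 astrocyte and 5 microglial markers were higher in WT NeuN- nuclei. The RNA of the targeted genes was not lower in the libraries labelled as their knockouts. The study's methods state that the sequenced mice were genotyped again. Mutyh counts were 71 to 79 in WT NeuN+ libraries and 550 to 903 in those labelled Mutyh-/- or DKO, and Ogg1 RNA differed by 0.05 ± 0.11 (log2 ± SE) between NeuN+ libraries labelled Ogg1-/- and WT. Genotypes below are those of the labels. All knockout comparisons within a cell fraction used the same 3 WT libraries.

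Ndufs5 carried the largest change against WT among the members that passed the test, and it has a near-identical second copy in the genome. Ndufs5 encodes a small accessory subunit on the intermembrane-space side of the enzyme. It lies on chromosome 4 at chr4:123712710-123718202 (GRCm38, minus strand), 6.89 Mb from Mutyh. Its processed copy, Ndufs5-ps, was annotated at chr16:42955631-42955949 (plus strand). The copy matched 317 of 319 aligned bases of the Ndufs5 transcript, and the 2 substitutions were T81C and A105G (base of Ndufs5, position from 1 at the coding start, base of the copy). Within the 319 aligned bases only these 2 tell the loci apart. The Ndufs5 transcript has 525 bases, and sequence outside the aligned part, which can also place a read, was not compared. The stretch of the reference coding sequence that spans both is shown with the differing bases in capitals (coding positions 21 to 165, read from the GRCm38 reference).
Ndufs5: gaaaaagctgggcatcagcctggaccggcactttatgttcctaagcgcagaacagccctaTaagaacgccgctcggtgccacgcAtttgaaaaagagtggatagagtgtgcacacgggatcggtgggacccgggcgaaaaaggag
Ndufs5-ps: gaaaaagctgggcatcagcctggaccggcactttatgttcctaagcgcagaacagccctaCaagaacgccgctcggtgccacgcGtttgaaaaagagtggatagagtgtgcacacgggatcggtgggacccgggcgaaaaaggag

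Ndufs5 counts in NeuN+ nuclei were lower in the libraries labelled Mutyh-/- or DKO. The 3 WT libraries held 523, 526 and 578 counts of Ndufs5, against 291, 226 and 390 in Mutyh-/- and 299, 330 and 379 in DKO. As CPM, counts set to a common library size with the trimmed mean of M-values (TMM), these were 7.77, 7.88 and 8.87 in WT, 4.75, 4.07 and 4.99 in Mutyh-/- and 4.21, 4.35 and 4.67 in DKO. Every Mutyh-/- and DKO library lay below every WT library. The log2 fold change was -0.82 ± 0.10 (SE, n = 3 against 3, adjusted p = 0.000307) in Mutyh-/- and -0.89 ± 0.09 (adjusted p = 0.000198) in DKO. Both calls held when any 1 of the libraries compared was left out, with adjusted p up to 0.00332.

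The Ogg1-/- NeuN+ libraries lay between. Their Ndufs5 levels were 7.003, 6.02 and 6.13 CPM, below all 3 WT libraries and above all Mutyh-/- and DKO libraries. The fold change of Ndufs5 against WT was -0.36 ± 0.09 and missed the threshold (adjusted p = 0.0782). Directly compared, Ndufs5 was lower in DKO than in Ogg1-/- by -0.53 ± 0.09 (adjusted p = 0.0239) and higher in Ogg1-/- than in Mutyh-/- by 0.46 ± 0.10 (adjusted p = 0.0371). Leaving out 1 library lost each of these 2 calls in 5 of 6 fits, and they held only without DKO replicate 3 and without Mutyh-/- replicate 3, with adjusted p up to 0.174 and 0.181. Ndufs5 was the only member called in either (adjusted p under 0.05), where 0.179% of all tested genes were called lower in DKO than in Ogg1-/- and 0.365% higher in Ogg1-/- than in Mutyh-/-.

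Counts of the copy moved the opposite way in the same libraries. Ndufs5-ps held 57, 63 and 45 counts in WT NeuN+ libraries and 59, 49 and 40 in Ogg1-/-. It held 233, 226 and 245 in Mutyh-/- and 213, 249 and 133 in DKO, so every Mutyh-/- or DKO library was above every WT or Ogg1-/- library. Its fold change against WT was 2.14 ± 0.26 in Mutyh-/- (adjusted p = 0.000472), 1.67 ± 0.26 in DKO (adjusted p = 0.0096) and -0.46 ± 0.30 in Ogg1-/- (adjusted p = 0.592).

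In NeuN- nuclei the copy again stood apart. Ndufs5-ps held 189, 129 and 177 counts in WT, 143, 156 and 132 in Ogg1-/-, 427, 444 and 355 in Mutyh-/- and 464, 316 and 218 in DKO. It was higher by 1.33 ± 0.15 in Mutyh-/- (adjusted p = 0.00222) and by 1.16 ± 0.15 in DKO (adjusted p = 0.00755), and differed by 0.11 ± 0.15 in Ogg1-/- (adjusted p = 0.837). Ndufs5 itself was at 6.90, 7.95 and 8.14 CPM in WT NeuN- libraries, 5.64, 6.11 and 5.19 in Mutyh-/-, 4.99, 6.03 and 5.93 in DKO and 7.67, 7.67 and 7.50 in Ogg1-/-. Mutyh-/- and DKO did not overlap WT, whereas Ogg1-/- lay within its range. The edgeR test, as in all adjusted p-values here over all tested genes, did not call Ndufs5 in NeuN- nuclei of Mutyh-/- (-0.44 ± 0.10, adjusted p = 0.103) or DKO (-0.44 ± 0.10, adjusted p = 0.111). DESeq2 called it in both, with adjusted p = 0.00664 and 0.00798.

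The share of the copy in the summed counts of both loci separated the Mutyh-/- and DKO libraries from the WT and Ogg1-/- libraries in both fractions. In NeuN+ nuclei it was 9.25% ± 1.81 in WT (SD, n = 3), 8.64% ± 2.29 in Ogg1-/-, 44.3% ± 5.71 in Mutyh-/- and 36.9% ± 9.45 in DKO. In NeuN- nuclei it was 21.4% ± 1.63, 22.8% ± 1.25, 48.01% ± 1.39 and 44.8% ± 6.82 in the same order. In each fraction the lowest Mutyh-/- or DKO library, at 26.0% in NeuN+ and 37.3% in NeuN-, was above the highest WT or Ogg1-/- library, at 11.2% and 23.8%.

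Adding both loci removed each Ndufs5 call, an alternative chosen after seeing the data. Summed in each NeuN+ library, both loci held 580, 589 and 623 counts in WT, 524, 452 and 635 in Mutyh-/-, 526, 624 and 584 in Ogg1-/- and 512, 579 and 512 in DKO. The fold change of the sum against WT was -0.12 ± 0.09 in Mutyh-/- (adjusted p = 0.5002), with a 95% interval from -0.30 to 0.05. It was -0.35 ± 0.09 in DKO (adjusted p = 0.101), with an interval from -0.53 to -0.18. In Ogg1-/- it was -0.37 ± 0.09 (adjusted p = 0.0655), with an interval from -0.54 to -0.19. DKO and Ogg1-/- were thus close to each other, and both intervals, not adjusted for the number of genes, lay below 0. In NeuN- nuclei the sum differed from WT by 0.16 ± 0.09 in Mutyh-/-, 0.02 ± 0.09 in Ogg1-/- and 0.08 ± 0.09 in DKO, none passing the test. A fall of Ndufs5 transcripts and a move of reads between both loci therefore cannot be told apart from the row of Ndufs5 alone. How reads that fit both places were counted is not given in the sources used here, and its part was not tested.

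**Figure D1:**
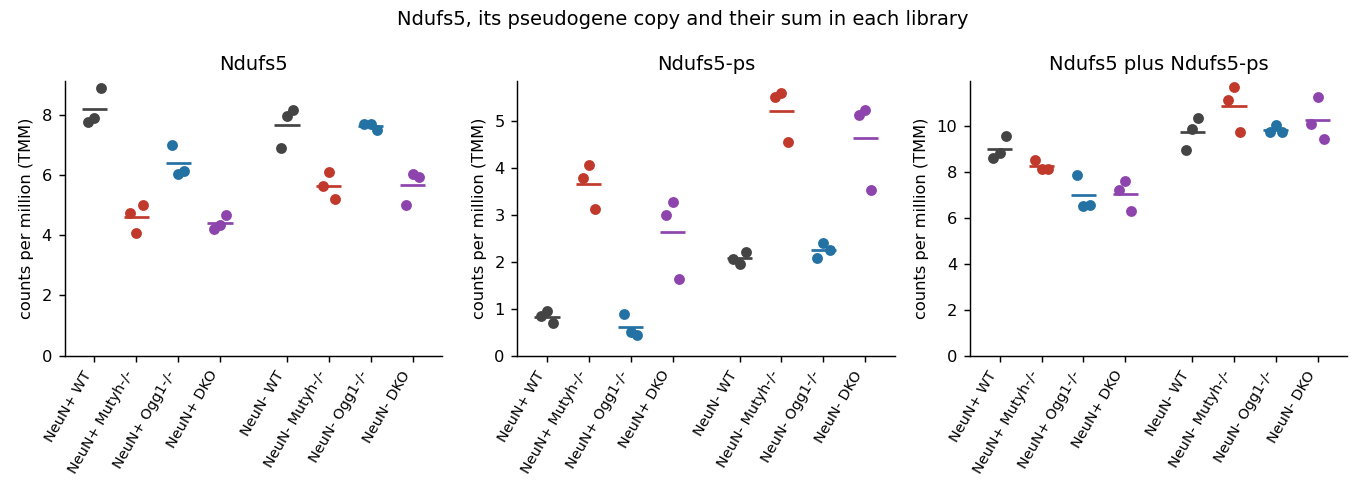
TMM-scaled CPM of Ndufs5, Ndufs5-ps and their sum on the y axes, with 1 point per library, a bar at the mean of 3 libraries and the 8 groups along the x axes. Ndufs5 is low and Ndufs5-ps high in Mutyh-/- and DKO of both fractions, and in the sum the 3 Mutyh-/- libraries of NeuN+ nuclei lie at 8.13 to 8.55 CPM, beside 8.62 to 9.56 in WT.

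Other genes near Ndufs5 were also called in Mutyh-/- and DKO. Of 42 genes tested within 1 Mb, 5 were called higher and 0 lower in Mutyh-/- NeuN+ nuclei, 4 higher and 0 lower in DKO NeuN+ nuclei, and 0 in Ogg1-/- in either fraction. Among all tested genes 0.418% and 0.083% were called higher in Mutyh-/- and DKO NeuN+ nuclei. In NeuN- nuclei 2 neighbours were called higher and 1 lower in Mutyh-/- and in DKO. Among all tested genes there, 0.188% were called higher and 0.132% lower in Mutyh-/-, and 0.069% and 0.11% in DKO. The part of this neighbourhood in the Ndufs5 result was not tested.

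In the edgeR fit over all 4 genotypes, Ndufb11 was the only other member called against WT. It encodes an accessory subunit of the membrane arm and lies on the X chromosome at chrX:20615326-20617619 (minus strand). WT NeuN+ libraries held 249, 275 and 249 counts, or 3.699, 4.12 and 3.82 CPM. Ogg1-/- libraries were at 3.06, 2.37 and 2.27 CPM, DKO at 2.62, 2.63 and 2.38 and Mutyh-/- at 3.25, 2.88 and 2.64. All 9 knockout libraries were below all 3 WT libraries. The fold change of Ndufb11 was -0.60 ± 0.12 in Ogg1-/- and -0.61 ± 0.12 in DKO, both called (adjusted p = 0.028 and 0.0412), and -0.41 ± 0.12 in Mutyh-/- missed the threshold (adjusted p = 0.108). Leaving out 1 library lost the call in 5 of 6 fits for Ogg1-/-, all but that without Ogg1-/- replicate 1, and in 6 of 6 for DKO, with adjusted p up to 0.172 and 0.237.

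Ndufb11 overlaps its neighbour Rbm10, on the opposite strand, by 117 bp at the 5′ ends of both genes. Rbm10, an RNA-binding splicing regulator, differed by 0.22 ± 0.07, 0.08 ± 0.07 and 0.15 ± 0.07 in Mutyh-/-, Ogg1-/- and DKO NeuN+ nuclei, none called. In NeuN- nuclei Ndufb11 was at 6.32, 5.93 and 6.09 CPM in WT, and all 9 knockout libraries were again lower, at 4.76 to 5.85. Its fold changes there were -0.23 ± 0.10, -0.21 ± 0.10 and -0.15 ± 0.10, none called. Of the genes tested within 1 Mb of Ndufb11, 31 in NeuN+ and 28 in NeuN- nuclei, 0 were called in any knockout.

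Most tested members lay slightly below WT in the NeuN+ nuclei of each knockout. Low-count filtering kept 47 of the 49 members in NeuN+ and 48 in NeuN- nuclei. Ndufs6b failed in both, with 0 counts in all NeuN+ libraries and at most 1 in NeuN- libraries, and Ndufa4l2 failed in NeuN+ with 3 to 12 counts. In Mutyh-/- NeuN+ nuclei 34 of 47 tested members had a fold change below 0, against 51.9% of all tested genes, with a median of -0.09 beside -0.01 for all genes. Without Mutyh-/- replicate 3 that median was -0.05, and 1903 of all genes were called, against 67 lower and 126 higher with it. In Ogg1-/- it was 39 of 47 against 47.8%, with a median of -0.10 beside 0.01. In DKO it was 37 of 47 against 50.1%, with a median of -0.09 beside 0.00. In bulk nuclei, fewer cells of a type and less RNA per cell cannot be told apart. These 3 comparisons share their WT libraries and are not independent. Between the knockouts the medians in NeuN+ were 0.01 for DKO against Ogg1-/-, -0.03 for DKO against Mutyh-/- and -0.04 for Ogg1-/- against Mutyh-/-. DKO against Mutyh-/- called 0 members with edgeR, where 0.129% of all genes were called lower and 0.0332% higher, and 0 with DESeq2, and 1 was lower at unadjusted p under 0.05 (3.45% of all genes).

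Few members passed the test across all genes. In Mutyh-/- NeuN+ nuclei 1 member was called lower (Ndufs5), where 0.222% of all genes were, and 11 were lower at unadjusted p under 0.05, against 9.21% of all genes, with none higher (9.48%). In Ogg1-/- 1 was called lower (Ndufb11), where 0.873% were, and 14 were lower and 1 higher at unadjusted p under 0.05, against 7.33% and 5.01%. In DKO 2 were called lower (Ndufs5 and Ndufb11), where 0.412% were, and 14 were lower and 1 higher unadjusted, against 7.51% and 5.98%. All 4 calls also passed an absolute log2 change of 0.5, where 0.133%, 0.392% and 0.246% of all genes did so downwards. All 3 knockout libraries lay below all 3 WT libraries for 12, 16 and 16 members, against 10.8%, 10.2% and 9.49% of all genes. The fitted changes of the 47 members ran from -0.82 to 0.64, -0.62 to 1.07 and -0.89 to 0.88 in the same order. DESeq2, and edgeR fitted to these 2 genotypes alone, called 5 members in Ogg1-/- NeuN+ nuclei, which were Ndufa13, Ndufb10, Ndufb11, Ndufb9 and Ndufs5. The shares of all genes called in those 2 fits are not given here, so these 5 calls are not read as particular to the members.

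None of the 7 core subunits was called in a knockout. In Ogg1-/- and DKO NeuN+ nuclei all 7 lay below 0, with medians of -0.10 and -0.06, and in Mutyh-/- 6 of 7 did, with a median of -0.04. At unadjusted p under 0.05, 1, 3 and 2 of the 7 were lower in Mutyh-/-, Ogg1-/- and DKO, against 9.21%, 7.33% and 7.51% of all genes. For 0, 3 and 2 of the 7 all knockout libraries lay below all WT libraries, against 10.8%, 10.2% and 9.49% of all genes. Ndufs1, the largest iron-sulphur subunit, differed by -0.10 ± 0.05 in Ogg1-/- and -0.11 ± 0.05 in DKO, from WT levels of 45.4, 43.8 and 42.2 CPM. Ndufv1, which binds the flavin that takes up the electrons of NADH, differed by -0.16 ± 0.07 in Ogg1-/-, where its 3 libraries at 18.6 to 18.9 CPM were below WT at 19.4 to 22.1. Among Ndufs3, Ndufs7, Ndufs8 and Ndufv2 the values ran from -0.17 for Ndufs8 in Ogg1-/- to 0.02 for Ndufv2 in Mutyh-/-.

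Of the 13 accessory A-series genes, 11 were below 0 in Mutyh-/- NeuN+ nuclei, 13 in Ogg1-/- and 12 in DKO, with medians of -0.12, -0.12 and -0.13. Of the 12 B- and C-series genes, 9, 10 and 8 were, with medians of -0.12, -0.15 and -0.17. Ndufa13, also known as GRIM-19, was at 12.5, 13.1 and 12.1 CPM in WT and at 9.97 to 11.5 in the 9 knockout libraries, so no knockout library reached WT. Its fold changes of -0.23 ± 0.07, -0.29 ± 0.07 and -0.26 ± 0.07 had adjusted p = 0.115, 0.0642 and 0.121 in Mutyh-/-, Ogg1-/- and DKO. Ndufa13 lies within the annotated span of Yjefn3 on the same strand, and Ndufb9 shares part of its span with Gm49356. Ndufa13 was called in Ogg1-/- under DESeq2, library-total scaling, the replicate block and the fit of these 2 genotypes alone.

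Other accessory genes lay nearly as low in Ogg1-/- and DKO. Ndufb9 was at 8.99, 9.82 and 9.53 CPM in WT NeuN+ libraries, 8.43, 7.07 and 6.99 in Ogg1-/- and 7.93, 7.89 and 7.27 in DKO, with fold changes of -0.34 ± 0.10 and -0.30 ± 0.10. Ndufb10 differed by -0.34 ± 0.10 and -0.30 ± 0.10, and Ndufa5, a subunit next to the ubiquinone-reducing module, by -0.29 ± 0.09 and -0.28 ± 0.09. None of these 6 values was called, with adjusted p from 0.12 to 0.201. Ndufv3 was the member next to Ndufs5 by p in Mutyh-/-, at 12.5, 12.9 and 13.1 CPM against 14.5, 15.8 and 14.9 in WT, a change of -0.23 ± 0.06 that missed the threshold (adjusted p = 0.0956). Of the members above 0 in Mutyh-/-, Ndufa7 had the smallest p, with a change of 0.13 ± 0.06 (adjusted p = 0.271).

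The 8 assembly factors stayed near WT in NeuN+ nuclei. Their medians were 0.04, -0.01 and -0.02 in Mutyh-/-, Ogg1-/- and DKO, with 3, 4 and 5 of 8 below 0. In each, 0 were at unadjusted p under 0.05. Of all genes 9.21%, 7.33% and 7.51% were lower and 9.48%, 5.01% and 5.98% higher at that p. Ndufaf2, a paralogue of Ndufa12 that takes its place during assembly, differed by 0.07 ± 0.06 in Ogg1-/-. Ndufaf5, an arginine hydroxylase that acts on Ndufs7, differed by 0.11 ± 0.07 in DKO. These were the protein-coding members of smallest p among those above 0 in Ogg1-/- and DKO.

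The remaining members were pseudogenes or less certain members. Ndufa11b, a pseudogene that matches Ndufa11 at 402 of 424 aligned bases, held 9, 8 and 13 counts in WT NeuN+ libraries, 13, 14 and 19 in Mutyh-/-, 20, 28 and 32 in Ogg1-/- and 16, 22 and 26 in DKO. In CPM no WT library reached a knockout library, and the fold changes of 1.07 ± 0.28 and 0.88 ± 0.29 were not called (adjusted p = 0.0901 and 0.2). Its parent gene Ndufa11 spanned 4.58 to 5.68 CPM in WT, beside 4.58 to 4.92 in Ogg1-/-. Ndufb4c is identical to Ndufb4 over all 390 aligned bases, so reads within them cannot be given to 1 locus with certainty. These bases are the whole of Ndufb4c but only part of the Ndufb4 transcript of 971 bases. Ndufb4c was at 1.40, 1.53 and 1.52 CPM in WT and 1.26, 0.97 and 0.70 in Ogg1-/- (-0.62 ± 0.24, adjusted p = 0.285). Ndufa4, now counted as a subunit of cytochrome c oxidase, differed by -0.22 ± 0.09 in DKO (adjusted p = 0.323).

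**Figure D2:**
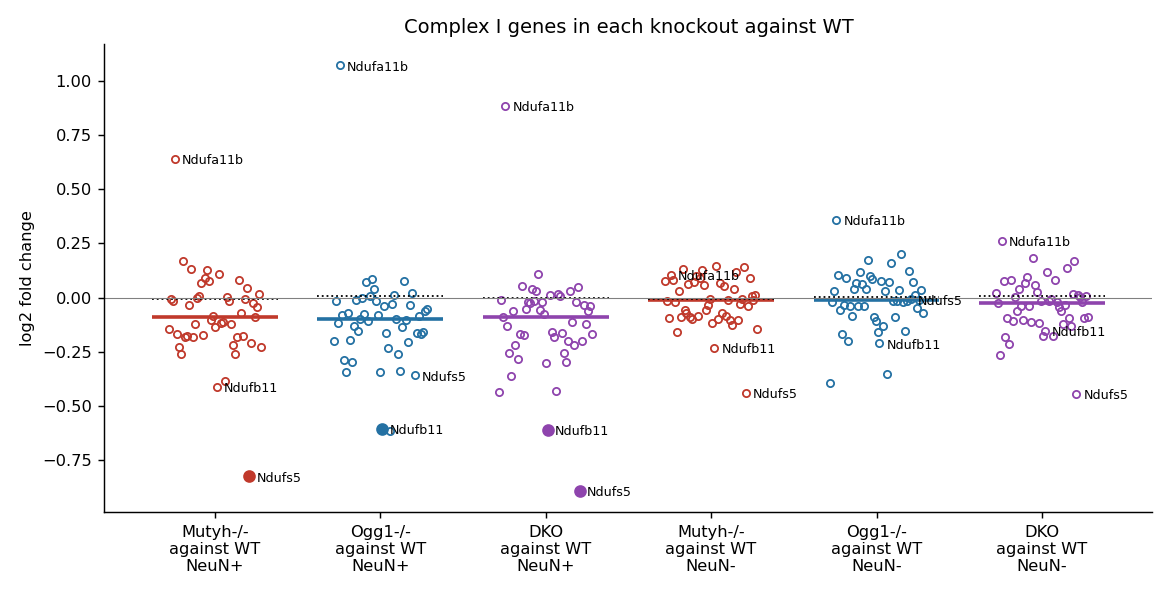
Log2 fold change against WT (y axis) of each tested complex I gene in the 6 knockout comparisons (x axis), 47 genes in NeuN+ and 48 in NeuN- nuclei. Filled points passed adjusted p under 0.05, coloured bars mark the members' median and dotted lines that of all tested genes, and the members' medians are -0.09, -0.10 and -0.09 in NeuN+ and -0.01, -0.01 and -0.02 in NeuN- nuclei.

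NeuN- nuclei showed less of this. The medians of the 48 tested members were -0.01, -0.01 and -0.02 in Mutyh-/-, Ogg1-/- and DKO, beside -0.01, 0.00 and 0.01 for all genes, and 28, 26 and 29 members lay below 0, against 51.2%, 49.8% and 48.5% of all genes. edgeR called 0 members in each, where 0.132%, 0.16% and 0.11% of all genes were called lower and 0.188%, 0.182% and 0.069% higher. At unadjusted p under 0.05, 3, 3 and 4 members were lower (6.9%, 6.08% and 6.31% of all genes) and 2 in each were higher (6.78%, 5.75% and 6.06%), and DESeq2 called 1, 0 and 1 (Ndufs5). Ndufb2, an accessory subunit, was at 10.8, 10.8 and 10.9 CPM in Mutyh-/- and 9.88, 9.63 and 9.84 in WT, a difference of 0.15 ± 0.05 (adjusted p = 0.258). Ndufc2 was higher in all 3 Ogg1-/- libraries, at 14.96 to 16.98 CPM, than in WT, at 13.1 to 14.6 (0.20 ± 0.07, adjusted p = 0.282). Ndufab1, the mitochondrial acyl carrier protein, was also higher in all 3 Ogg1-/- libraries, at 22.4 to 23.6 against 20.3 to 21.9 CPM in WT, and Ndufa1, a small membrane-arm subunit, was lower in all 3, at 0.671 to 0.995 against 1.09 to 1.17, neither called. Ndufv3 differed in Mutyh-/- by -0.14 ± 0.05, not called. Ndufs4, a subunit of the matrix arm, differed by 0.14 ± 0.06 in Mutyh-/- and 0.17 ± 0.06 in DKO, and Ndufa11 by -0.26 ± 0.08 in DKO (adjusted p = 0.236).

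The knockout effect in NeuN+ minus that in NeuN- nuclei was tested directly. In this fit of all 24 libraries 0 of 48 members were called in any knockout by edgeR or DESeq2, where 0.00895%, 0.0209% and 0.0179% of all genes were called lower in Mutyh-/-, Ogg1-/- and DKO and 0.0119%, 0.0328% and 0.0388% higher. Unadjusted p was under 0.05 for 2, 7 and 4 members, all with the lower value in NeuN+, where 4.64%, 3.04% and 4.76% of all genes were. The members' median difference was -0.09, -0.11 and -0.09, beside -0.02, 0.01 and 0.00 for all genes. Ndufs5 had the smallest p in each, with differences of -0.40 ± 0.14, -0.34 ± 0.13 and -0.44 ± 0.14 (adjusted p = 0.396, 0.607 and 0.294). Summed with its copy these were -0.29 ± 0.13, -0.38 ± 0.13 and -0.42 ± 0.13, none called. Ndufb11 followed in DKO with -0.45 ± 0.15 (adjusted p = 0.353), Ndufa12 in Mutyh-/- with -0.26 ± 0.11 and Ndufa8 in Ogg1-/- with -0.22 ± 0.09. On the other side, Ndufaf2 lay above 0 in each, by 0.14 ± 0.07, 0.12 ± 0.07 and 0.08 ± 0.07.

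Summed over all 49 members, with each fraction scaled on its own, counts gave 660 to 676 CPM in the 3 WT NeuN+ libraries. Ogg1-/- libraries held 629 to 651 and DKO 625 to 654, both below WT, and Mutyh-/- held 623 to 669, which overlapped it. In NeuN- nuclei the sums were 697 to 702 in WT and overlapped those of Mutyh-/-, at 676 to 707.4, Ogg1-/-, at 692 to 713, and DKO, at 683 to 697.4. With all 24 libraries scaled together the sums were 721 to 730 in WT NeuN+ nuclei and 639 to 644 in WT NeuN- nuclei, and Mutyh-/- (679 to 718), Ogg1-/- (684 to 712) and DKO (683 to 717) NeuN+ libraries all lay below WT. None of the 8 neuronal markers was called in any knockout in NeuN+ nuclei, and their medians were 0.03, -0.08 and -0.03 in Mutyh-/-, Ogg1-/- and DKO. In NeuN- nuclei, where 0 of 8 were called either, they were -0.16, -0.28 and -0.30. In DKO NeuN+ nuclei the medians were -0.43 for 5 oligodendrocyte, -0.47 for 3 oligodendrocyte precursor, -0.25 for 6 astrocyte, -0.39 for 4 choroid plexus and 0.0057 for 4 microglial markers. In Ogg1-/- they were 0.0071, -0.20, -0.10, -0.70 and -0.01 and in Mutyh-/- -0.19, -0.14, -0.22, -0.30 and -0.07, and none of these markers was called in NeuN+ nuclei. The summed levels of astrocyte and oligodendrocyte markers, scaled over all 24 libraries, overlapped WT, with 271 to 326 CPM of astrocyte markers in DKO against 294 to 358 in WT, and 117 to 132 against 119 to 123 for oligodendrocytes. In NeuN- nuclei the astrocyte median was 0.25 in Ogg1-/- and in DKO, with 1 of 6 called higher in Ogg1-/- and 0 in DKO, and choroid plexus markers summed to 7.16 to 212 CPM in DKO against 33.4 to 59.9 in WT. The part of these cell types in the members' values was not tested.

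Other groups of genes expressed in all cells lay lower in the same libraries. Among 41 tested genes of respiratory complexes II to V, 38, 39 and 39 were below 0 in Mutyh-/-, Ogg1-/- and DKO NeuN+ nuclei, with medians of -0.15, -0.23 and -0.22 and 0, 3 and 0 called. Among 81 tested cytosolic ribosomal protein genes, 69, 79 and 79 were, with medians of -0.18, -0.34 and -0.28 and 0, 10 and 0 called. By their medians, complex I genes lay nearer to 0 than either group in each of the 3. In NeuN- nuclei the ribosomal medians were -0.13, -0.21 and -0.20 and those of complexes II to V -0.05, -0.06 and -0.06. Of the other complex I genes on the list, which are assembly factors named otherwise such as Ecsit, Nubpl and Timmdc1, 9 were tested, 0 were called in any knockout, and their medians in NeuN+ were -0.05, 0.01 and 0.01.

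Complex I genes that were shorter, or lower in level, tended to have the lower fold changes in NeuN+ nuclei. Across the 47 members Spearman's rho between gene span and fold change was 0.33, 0.51 and 0.44 in Mutyh-/-, Ogg1-/- and DKO, whereas across 29185 genes with a span it was -0.04, -0.0027 and -0.06. With the level of the members rho was 0.36, 0.44 and 0.40, and with their exon length 0.29, 0.36 and 0.41. In NeuN- nuclei rho with span was 0.02, 0.35 and 0.33 over 48 members. Members share their libraries and are not independent, so these are descriptions. The median span was 7.8 kb for members and 12.1 kb for all. Ndufb11 (2.3 kb) and Ndufs5 (5.5 kb) lie on the short side, and the longest members, Ndufaf2 (155.9 kb) and Ndufs4 (100.5 kb), differed by at most 0.07. The part of gene length or level in the members' shift was not tested.

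**Figure D3:**
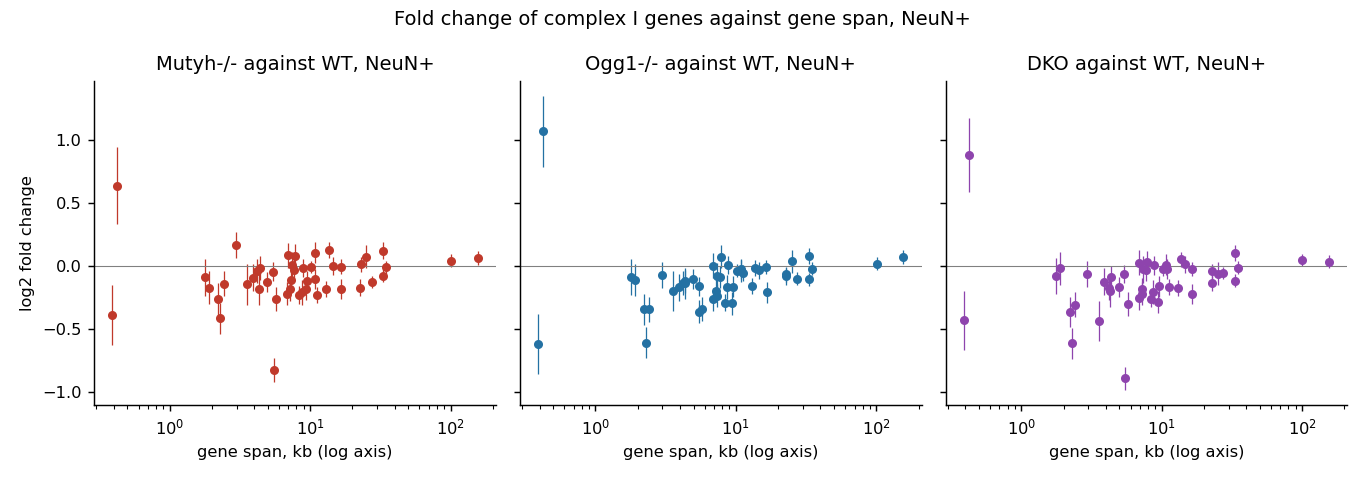
Log2 fold change against WT in NeuN+ nuclei (y axis, bars are SE) against gene span in kb (log x axis) for the 47 tested complex I genes, with 1 panel per knockout. Points for genes under 10 kb lie mostly below 0, and those of the longest genes lie near it, with rho of 0.33, 0.51 and 0.44.

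Between the WT fractions far more members were called than between genotypes, as held for all tested genes. Of 48 tested members, 26 were higher in NeuN+ and 10 higher in NeuN- nuclei at adjusted p under 0.05, where 36.1% and 36.3% of all genes were. The members' median difference was 0.23 (log2, NeuN+ over NeuN-), beside -0.01 for all genes. The split of the calls depended on the scaling, with 34 higher and 7 lower under upper-quartile factors and 10 higher and 12 lower under library totals alone. Library totals moved the median of all genes to -0.25 and that of the members to -0.0038, and upper quartiles moved that of all genes to 0.10. Relative to the median of all genes under the same scaling, 37 of 48 members were higher in NeuN+ under each of the 4 scalings, with a median of 0.24. Of the 48 members, 23 stayed higher and 10 stayed lower in NeuN+ under all 4 scalings. The labels also put the 2 fractions on different lanes, so lane and fraction cannot be told apart.

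Levels are given as FPKM, counts scaled for library size and for the exon length of a gene, so that genes can be compared. The core subunits split between the fractions. Ndufs3, part of the ubiquinone-reducing module, was at 10.4, 10.1 and 10.03 FPKM in WT NeuN+ and 6.62, 6.74 and 7.14 in WT NeuN- libraries (0.57 ± 0.06, adjusted p = 6.69e-09). Ndufv2, an iron-sulphur subunit of the NADH-oxidising tip, was also higher, at 16.9, 17.2 and 17.4 against 13.005, 13.7 and 13.7 FPKM (0.35 ± 0.06). Ndufv1 was too, by less, at 8.02, 8.77 and 9.02 against 7.20, 7.07 and 7.58 (0.24 ± 0.07, adjusted p = 0.00547). Ndufs7 and Ndufs8, which carry iron-sulphur clusters of the module that Ndufs3 belongs to, went the other way and were lower in NeuN+. Ndufs8 was at 3.996, 3.74 and 3.75 against 5.37, 5.12 and 5.24 FPKM (-0.45 ± 0.10), and Ndufs7 at 6.95, 8.85 and 8.11 against 10.8, 9.78 and 10.4 (-0.37 ± 0.09). Ndufs1, at 5.61 to 6.12 and 6.005 to 6.45 FPKM, overlapped between the fractions and was not called (-0.07 ± 0.05). The called core subunits named here kept their sign under all 4 scalings, although Ndufv1 came to 0.0081 under library totals.

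Counts of calls by series stand beside 36.1% of all genes called higher and 36.3% called lower in NeuN+, and they depended on the scaling as above. All 4 accessory V- and S-series genes were above 0, and 3 were called higher in NeuN+. Ndufs4 was at 25.8, 23.1 and 24.7 FPKM in NeuN+ and 17.4, 17.4 and 18.3 in NeuN- (0.47 ± 0.06). Ndufs5 was called as well (0.34 ± 0.09, adjusted p = 0.00299), but with Ndufs5-ps added the difference was 0.13 ± 0.09 (adjusted p = 0.201), since the copy was lower in NeuN+ by -1.08 ± 0.24. Of 13 A-series genes 7 were called higher and 2 lower. Ndufa5 stood at 11.8, 10.1 and 9.91 FPKM against 6.34, 5.78 and 5.76 (0.83 ± 0.08, adjusted p = 6.26e-09). Ndufa10, a subunit with a nucleoside-kinase fold, had the smallest p of all members, at 11.8, 12.6 and 12.8 against 8.52, 8.54 and 8.49 (0.54 ± 0.04, adjusted p = 5.25e-11). Ndufa7 was lower in NeuN+, at 4.96, 4.96 and 5.005 against 6.86, 6.55 and 7.01 (-0.45 ± 0.06, adjusted p = 3.69e-07). Of 12 B- and C-series genes 7 were called higher and 3 lower, with Ndufc1 (0.63 ± 0.13) and Ndufb11 (-0.41 ± 0.11) at the ends.

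Ndufaf5, an assembly factor, held the largest difference towards NeuN+ of the tested members. It was at 20.7, 20.6 and 22.01 FPKM in NeuN+ and 11.4, 11.2 and 12.8 in NeuN- (0.84 ± 0.07, adjusted p = 8.2e-11), with no overlap. Ndufaf4, which works with Ndufaf3 at an early step, was higher by 0.79 ± 0.11, although its level was low at 2.31 to 2.83 and 1.27 to 1.66 FPKM. Ndufaf2 was lower in NeuN+ at 16.3, 15.2 and 15.5 against 18.3, 18.8 and 18.7 (-0.25 ± 0.05, adjusted p = 0.000135). Ndufa4l2, a hypoxia-induced relative of Ndufa4, was the only member beyond 1 on the log2 scale, where 21.6% of all genes were that much lower in NeuN+ and 21.3% higher. It held 5, 5 and 11 counts in WT NeuN+ libraries and 43, 27 and 23 in WT NeuN- (-1.63 ± 0.38, adjusted p = 0.00062), so both levels were low. Ndufa4 itself was higher in NeuN+ (0.37 ± 0.08).

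**Figure D4:**
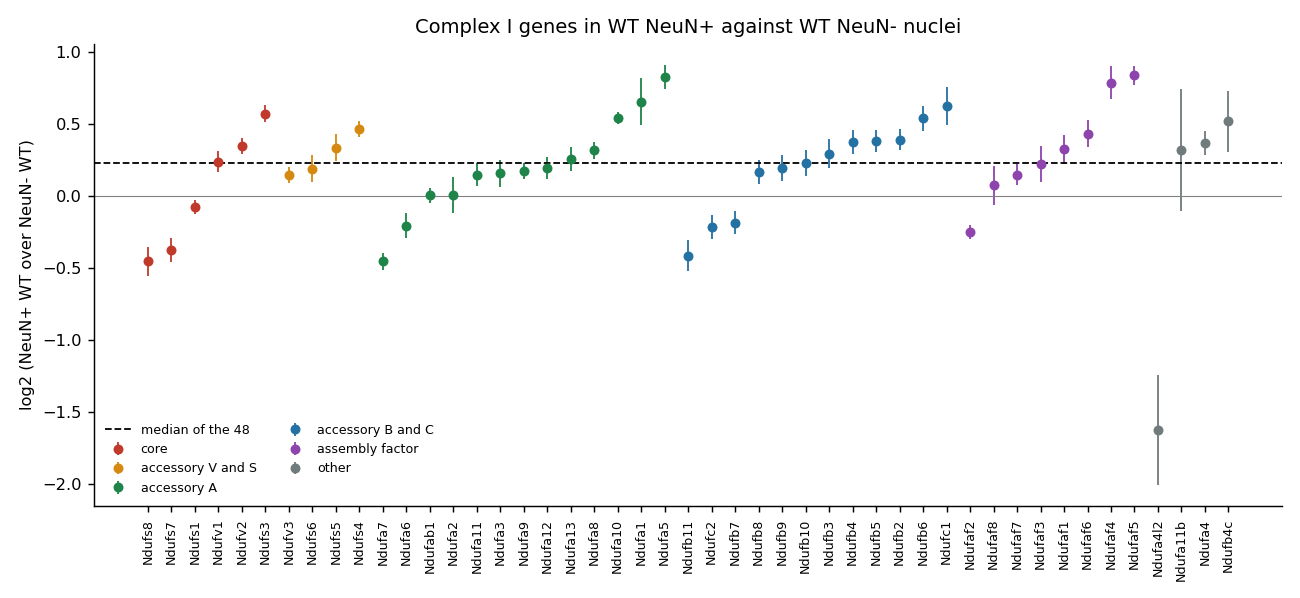
Log2 difference between WT NeuN+ and WT NeuN- nuclei (y axis, bars are SE, 3 libraries each) for 47 of the 48 tested complex I genes along the x axis, coloured by role and ordered within it. The dashed line is the median of 0.23 over the 48, the core genes shown run from -0.45 for Ndufs8 to 0.57 for Ndufs3, and Ndufa4l2 lies lowest at -1.63.

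Ndufaf6 had the highest level in both fractions, and the order below it differed. In WT NeuN+ nuclei the highest members were Ndufaf6 (25.8 FPKM ± 1.13, SD, n = 3), Ndufs4 (24.5 ± 1.34), Ndufaf5 (21.1 ± 0.79) and the core subunit Ndufv2 (17.2 ± 0.22). In WT NeuN- nuclei Ndufaf6 (19.0 ± 1.67), Ndufaf2 (18.6 ± 0.24) and Ndufs4 (17.7 ± 0.53) were among the highest, while Ndufv2 (13.5 ± 0.41) and Ndufaf5 (11.8 ± 0.88) stood at ranks 6 and 8. Of the 48 neighbouring pairs in that order, the 3 libraries of 1 gene lay wholly above those of the next in 15 pairs in NeuN+ and 14 in NeuN-, so most neighbours were not separated. Core subunits spanned 3.83 FPKM for Ndufs8 to 17.2 for Ndufv2 in NeuN+. The 44 subunits and assembly factors spanned a 19.7-fold range in NeuN+ and a 17-fold range in NeuN-, with Ndufaf3 lowest in both at 1.31 ± 0.20 and 1.12 ± 0.02. Below them lay Ndufa4l2 at 0.10 and 0.32 FPKM and Ndufa11b at 0.39 and 0.31. Exon-based values in nuclear RNA also hold unspliced transcripts, whose part in this order was not tested.

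**Figure D5:**
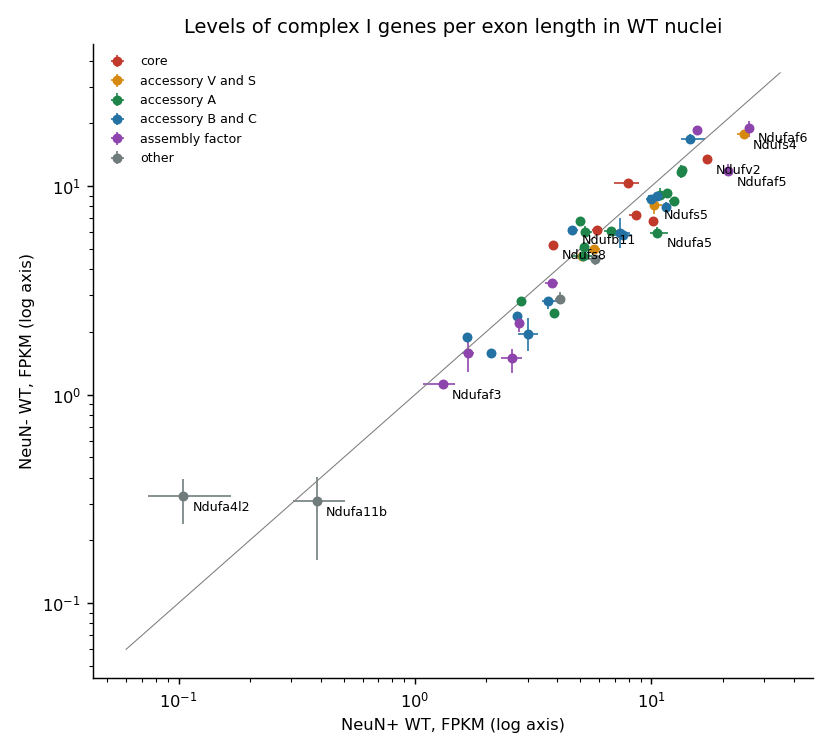
Mean FPKM in WT NeuN+ (x axis) and WT NeuN- nuclei (y axis), both log axes, for the complex I genes reported here that were detected in all 6 libraries, with bars from the lowest to the highest of 3 libraries and the line of equal levels. Most points lie within a narrow band, Ndufs8 lies above the line and Ndufaf5 and Ndufa5 below it.

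Promoters were read for 40 of the 49 members from RefSeq (GRCm38.p6), as 250 bases before to 50 bases after the transcript start. Ndufa2, Ndufa4l2, Ndufa11b, Ndufaf6, Ndufb4c, Ndufb9, Ndufs1 and Ndufs6b were among those not matched. Letters of 4 motifs known from promoters of respiratory genes were searched on both strands, NRF1 as GCGCA and GCGC with any 1 base between, ETS as CCGGAAG, YY1 as AAGATGGC and CRE as TGACGTCA, which reads the same on both strands. NRF1 letters stood in 9 members' promoters (22.5%, against 5.19% of 27025 genes), ETS in 6 (15%, against 9.93%), YY1 in 8 (20%, against 3.19%) and CRE in 3 (7.5%, against 2.03%). In complexes II to V the shares were 31.2%, 40.6%, 9.38% and 3.12% of 32 genes. All 8 YY1 matches began after the start, at bases 261 to 289 of the window, and 0 matches of different motifs overlapped. A match is a description of the sequence and not a bound site.

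The promoters of the 2 members called in a knockout and of the member with the largest difference towards NeuN+ are shown, since Ndufs5 and Ndufaf5 hold the NRF1 letters (capitals), before and after the start, and Ndufb11 holds none of the 4 motifs. They lie at chr4:123718137-123718436 (minus strand), chr2:140170396-140170695 (plus strand) and chrX:20617570-20617869 (minus strand).
Ndufs5 promoter: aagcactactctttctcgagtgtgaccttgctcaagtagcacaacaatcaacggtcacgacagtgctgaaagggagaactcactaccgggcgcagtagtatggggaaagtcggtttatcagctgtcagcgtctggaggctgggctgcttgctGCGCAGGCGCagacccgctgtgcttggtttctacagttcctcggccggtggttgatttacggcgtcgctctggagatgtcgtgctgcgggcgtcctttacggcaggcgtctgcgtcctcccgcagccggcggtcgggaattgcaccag
Ndufaf5 promoter: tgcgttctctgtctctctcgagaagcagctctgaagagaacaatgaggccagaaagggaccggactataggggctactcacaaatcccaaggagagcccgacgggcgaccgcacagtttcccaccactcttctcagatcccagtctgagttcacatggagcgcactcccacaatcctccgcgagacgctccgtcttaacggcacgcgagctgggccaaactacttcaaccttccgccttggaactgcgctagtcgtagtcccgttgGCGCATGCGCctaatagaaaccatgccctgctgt
Ndufb11 promoter: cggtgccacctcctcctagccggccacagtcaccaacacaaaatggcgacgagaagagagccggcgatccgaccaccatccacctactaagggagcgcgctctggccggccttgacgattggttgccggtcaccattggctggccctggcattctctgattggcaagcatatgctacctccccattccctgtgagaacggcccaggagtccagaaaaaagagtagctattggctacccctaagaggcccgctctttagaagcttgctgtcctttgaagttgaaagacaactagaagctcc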

How the data were processed

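Nuclear RNA from sorted hippocampal nuclei was sequenced by the authors with a stranded total RNA kit, paired-end. Per the study's methods and the submitters' processing notes, reads were checked with FastQC 0.11.9, aligned with HISAT2 2.1.0, handled with SAMtools 1.10 and counted with featureCounts. The strand and multi-mapping settings of the counting are not given in the sources used here. The deposited values are raw whole-number counts per gene for each of the 24 libraries, with no normalization. Total counts per library were 56563586 to 96192142 (median 70434612). Between 2 libraries of a group, the lowest percent of compared genes with differing counts was 97.2, so none was an identical copy of another. This does not show whether they differed beyond counting noise.

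Counts were tested with edgeR 4.0.16 in R 4.3.3 (TMM scaling, filterByExpr, quasi-likelihood F-test), in 1 fit per cell fraction over 4 genotypes and in 1 fit of all 24 libraries for the fractions and the interactions. Genes tested numbered 30132 in NeuN+, 31863 in NeuN- and 33523 in the joint fit, with Benjamini-Hochberg adjustment over all of them. A gene was called at adjusted p under 0.05, and fold thresholds on the log2 scale were 0.5 between genotypes and 1 between fractions. CPM used TMM-scaled library sizes. FPKM divided by GENCODE vM21 exon length. The intervals of the summed Ndufs5 counts are 95% normal intervals from the fitted SE.

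On simulated data with these libraries' means and sizes, the test recovered 52% of genes changed 1.5-fold and 73.7% of those changed 2-fold for Ogg1-/- against WT in NeuN+ (29747 genes), and 35.4% and 63% in NeuN- (31469 genes).

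The members and lists were chosen with earlier results of these data known. Genes were named by a rule: the 7 core subunits, members called against WT, the 2 of smallest p in each direction in each comparison with WT, the 3 of smallest p in each direction in the interactions and between fractions, those of highest and lowest level, Ndufa4, Ndufa4l2 and members failing the filter. A gene named by the rule is not reported here. The text gives most of these, and other members and genes named in it, such as Ndufs5-ps, Rbm10, Ndufb9, Ndufb10, Ndufa5 and the promoters shown, were chosen after their values were seen. Alternatives were other scalings, filters, DESeq2 1.42.0, a replicate block, fits of 2 genotypes, and leaving out each library. Mitochondrially encoded genes were not analysed here.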

Additional observations from a re-analysis of the deposited data

How the results depend on the processing

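A count of calls was taken as kept if it was unchanged, also at 0, or within 1.5 times. A median was taken as kept if it moved by no more than its SD between libraries, whatever its sign. Of the summary values under alternatives other than leaving out a library, 364 of 396 were kept in this sense and 32 moved. Of the values of single genes, 453 of 470 kept direction and side of the threshold, 4 lost and 8 gained the call and 5 reversed. When a library was left out, 254 of 306 summary values were kept in the same sense and 52 moved. Of 444 values of single genes 420 kept direction and side of the threshold, 21 lost the call and 3 reversed. Adding Ndufs5-ps to Ndufs5, chosen after seeing the data, left 0 members called in Mutyh-/- against WT in NeuN+ nuclei and 1 in DKO against WT. It left 0 in DKO against Ogg1-/- and in Ogg1-/- against Mutyh-/-, where the sum changed by 0.0123 and -0.24. In NeuN- nuclei the sum was 0.16, 0.0184 and 0.0786 from WT in Mutyh-/-, Ogg1-/- and DKO. Fits of only the 2 genotypes compared also left 0 calls in both of those knockout comparisons. For Ogg1-/- against WT in NeuN+, calls numbered 2 with library totals, 5 with DESeq2, 2 with the replicate block and 5 with 2 genotypes. The shares of all genes called under the same settings are not set beside them. The replicate block changed no other count of calls by over 1.5 times. Same-numbered libraries of the 2 fractions correlated by 0.162 on average, with 8 of 12 over 0.1, beside -0.079 and 1 of 24 for differently numbered ones, and those of different genotypes by -0.006 (NeuN+) and 0.056 (NeuN-), so not every pair passed 0.1 and the numbers were not taken as pairs. That libraries of the same number share a pool across fractions was not tested. With the block 38 members were called between WT fractions, against 36 without it, and 0 in each difference of knockout effects. In NeuN- nuclei DESeq2 called 1 member in Mutyh-/- and in DKO against WT and in both DKO and Mutyh-/- against Ogg1-/-, and library totals called 1 in the last. With library totals, medians were -0.0525 (Mutyh-/- against WT, NeuN-), 0.0063 (DKO against Ogg1-/-, NeuN-), 0.0521 (DKO against Mutyh-/-, NeuN-) and -0.13 (difference of the DKO effect between fractions). Between WT fractions the median was 0.21 with relative log expression factors, no filter, DESeq2 or the summed gene, 0.34 with upper quartiles, -0.0038 with library totals and 0.20 at 10 counts in every library, where 0 members were beyond 1 since Ndufa4l2 was not tested, and library totals called 22 members.

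Leaving out each library gave 0 to 1 calls in NeuN+ nuclei for Ogg1-/- against WT, DKO against Ogg1-/- and Ogg1-/- against Mutyh-/-, and 1 in every fit for DKO against WT. The members' medians ran in NeuN+ from -0.11 to -0.051 (Mutyh-/-), -0.13 to -0.0852 (Ogg1-/-) and -0.12 to -0.0594 (DKO) against WT and from -0.0739 to 0.0031 for DKO against Mutyh-/-. They ran from -0.0441 to 0.0295 (Mutyh-/-), -0.0236 to 0.0238 (Ogg1-/-) and -0.057 to -0.0208 (DKO) against WT in NeuN-, from -0.0443 to -0.000413 for DKO against Ogg1-/- and -0.03001 to 0.0473 for Ogg1-/- against Mutyh-/- in NeuN-, from -0.13 to -0.0813 and -0.12 to -0.061 for the difference of the Ogg1-/- and DKO effects between fractions, and from 0.20 to 0.24 between WT fractions. Ndufs5 in Ogg1-/- NeuN- nuclei ran from -0.0805 to 0.0466. Except where named, the cause of these moves was not tested. At the counts per library of Ndufs5 and Ndufb11, and still more of Ndufa4l2 and Ndufa11b, counting error bounds what could be detected.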
